A study of Mus musculus with 16 samples.

Results

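Mitochondrial protein import genes were examined in the ventricles of neonatal mice with and without *Lrrc10*, after sham surgery and after myocardial infarction (MI). The set was defined by name. It held every protein-coding gene whose symbol starts with Tomm or Timm, together with *Samm50*, *Mtx1*, *Mtx2*, *Mtx3*, *Chchd4*, *Gfer*, *Pam16*, *Grpel1*, *Grpel2*, *Pmpca* and *Pmpcb*. These were 37 of the 51912 genes of the count table, all of them present, and 35 passed the filter on low counts. The remaining pair, *Timm8a2* and *Tomm20l*, had 3 counts or fewer in every library.

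The study asked how loss of LRRC10, a protein of cardiomyocytes, alters the transcriptome of the regenerating neonatal heart. Bulk RNA sequencing was done on whole ventricles, taken both above and below the ligation site, 7 days after surgery at postnatal day 1. Wild-type (WT) mice were C57BL/6J, and knockout (KO) mice lacked *Lrrc10* in the whole body (Lrrc10-/-) on a C57BL/6 background. MI was made by ligating the left anterior descending artery, whereas sham (SH) mice had neither the heart exposed nor the artery ligated. Each of the 4 groups, named WT SH and KO SH for sham and WT MI and KO MI for infarction, had 4 libraries, and the KO MI libraries carry the replicate numbers 1, 2, 3 and 7.

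Nearly all proteins of the mitochondrion are encoded in the nucleus, made in the cytosol and imported. Precursors cross the outer membrane through the TOM complex and then take separate routes. The SAM complex inserts barrel proteins into the outer membrane, the MIA relay folds small cysteine-rich proteins of the intermembrane space, and small TIM chaperones escort hydrophobic precursors to SAM or to the carrier translocase TIM22. Proteins with a cleavable presequence pass through TIM23, are pulled into the matrix by the PAM motor and lose the presequence to the processing peptidase MPP. Cardiomyocytes are rich in mitochondria, and most of what their respiratory chain is made of arrives by these routes.

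The libraries held between 33783874 and 57470159 counts, and *Lrrc10* had 0 counts in all 8 KO libraries and 1075 to 1850 counts in the WT libraries. Levels are given in CPM, the usual unit of counts relative to library size, here after TMM scaling, where the 3 counts taken as the floor equal 0.0577 to 0.0858 CPM. *Xist* exceeded 100 CPM, the level taken to mark a female, in 6 libraries: KO SH replicates 1 and 2, WT MI replicates 2 and 4, and KO MI replicates 1 and 2. No WT SH library did, although the paper reports sex-matched groups with as many males as females. KO MI replicate 7 stood apart, since 13 of the 35 tested import genes were lowest there among the 16 libraries, and WT SH replicate 1 was the highest for 13. This was not confined to import genes. KO MI replicate 7 also had the lowest total count of the 16, and the lowest sums for mitochondrial ribosomal protein genes and for cardiomyocyte markers. WT SH replicate 1 had the highest total count and the highest value of each of these sums.

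A gene was called changed at a Benjamini-Hochberg adjusted p under 0.1 over all 20159 genes tested, from edgeR's quasi-likelihood test with all 16 libraries in the model. All adjusted p-values below come from that test, and log2 fold changes are given with their standard error (SE). A gene that was called and whose log2 fold change was 0.5 or more in size was a differentially expressed gene (DEG). Nothing in the labels ties a library to a litter or culture, so the p-values measure the spread between these 16 samples.

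Together the 37 genes took 606 to 762 CPM of a library. The sum was 762, 732, 743 and 693 CPM in WT SH replicates 1 to 4, and 655, 663, 642 and 649 CPM in the KO SH libraries. Every KO SH library was thus below every WT SH library. The sum was 711, 715, 698 and 696 CPM in WT MI, and in KO MI it was 712, 749 and 713 CPM for replicates 1 to 3 and 606 CPM for replicate 7. The MI groups overlapped, and the lowest value of all came from KO MI replicate 7. In bulk ventricle a lower level can come from fewer cells of a type or from less RNA per cell, and these cannot be told apart.

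**Figure D1:**
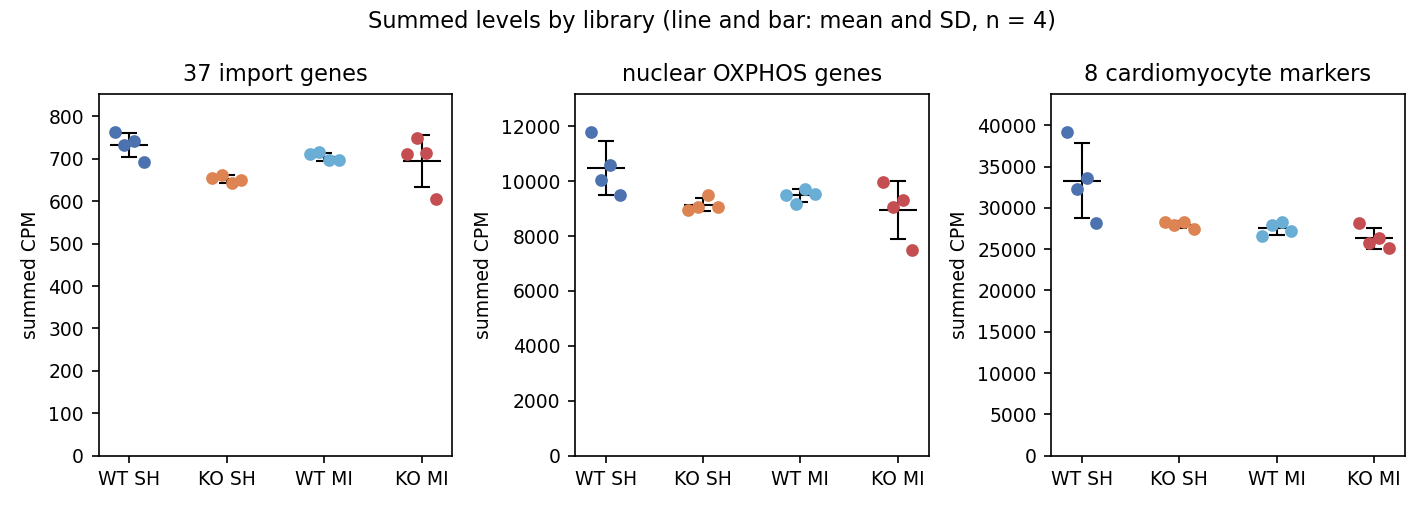
Summed CPM of the 37 import genes, the nuclear OXPHOS genes and 8 cardiomyocyte markers, by library; each point is a library, and the line and bar give the mean and SD of 4. The KO SH import sums lie between 642 and 663 CPM, below the WT SH range of 693 to 762 CPM, while KO MI spans 606 to 749 CPM.

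The comparison of KO SH with WT SH asks what loss of *Lrrc10* changes without injury, and it moved more import genes than any other comparison here. Of the 35 tested genes, 16 were called, 15 lower and 1 higher in KO SH, against 12.3% of all genes tested (7.22% lower and 5.11% higher). The 15 lower genes had log2 fold changes from -0.49 to -0.20, which is 0.712 to 0.869 of the WT SH level. The median log2 fold change was -0.20 over the 35 genes and 0.01 over all genes tested. Of the 35 values 33 were negative, where 51% of all genes had positive values. The shifts were small: none reached the DEG threshold in edgeR or DESeq2, where 5.01% of all genes did in edgeR. An unadjusted p under 0.05 was found for 17 of the 35, beside 4599 of the 20159 genes tested. The KO SH and WT SH libraries did not overlap for 16 of the 35 genes, all lower in KO SH, where 18.5% of all genes tested did not overlap. These were 14 of the 15 genes called lower and the uncalled *Mtx1* and *Tomm70a*.

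**Figure D2:**
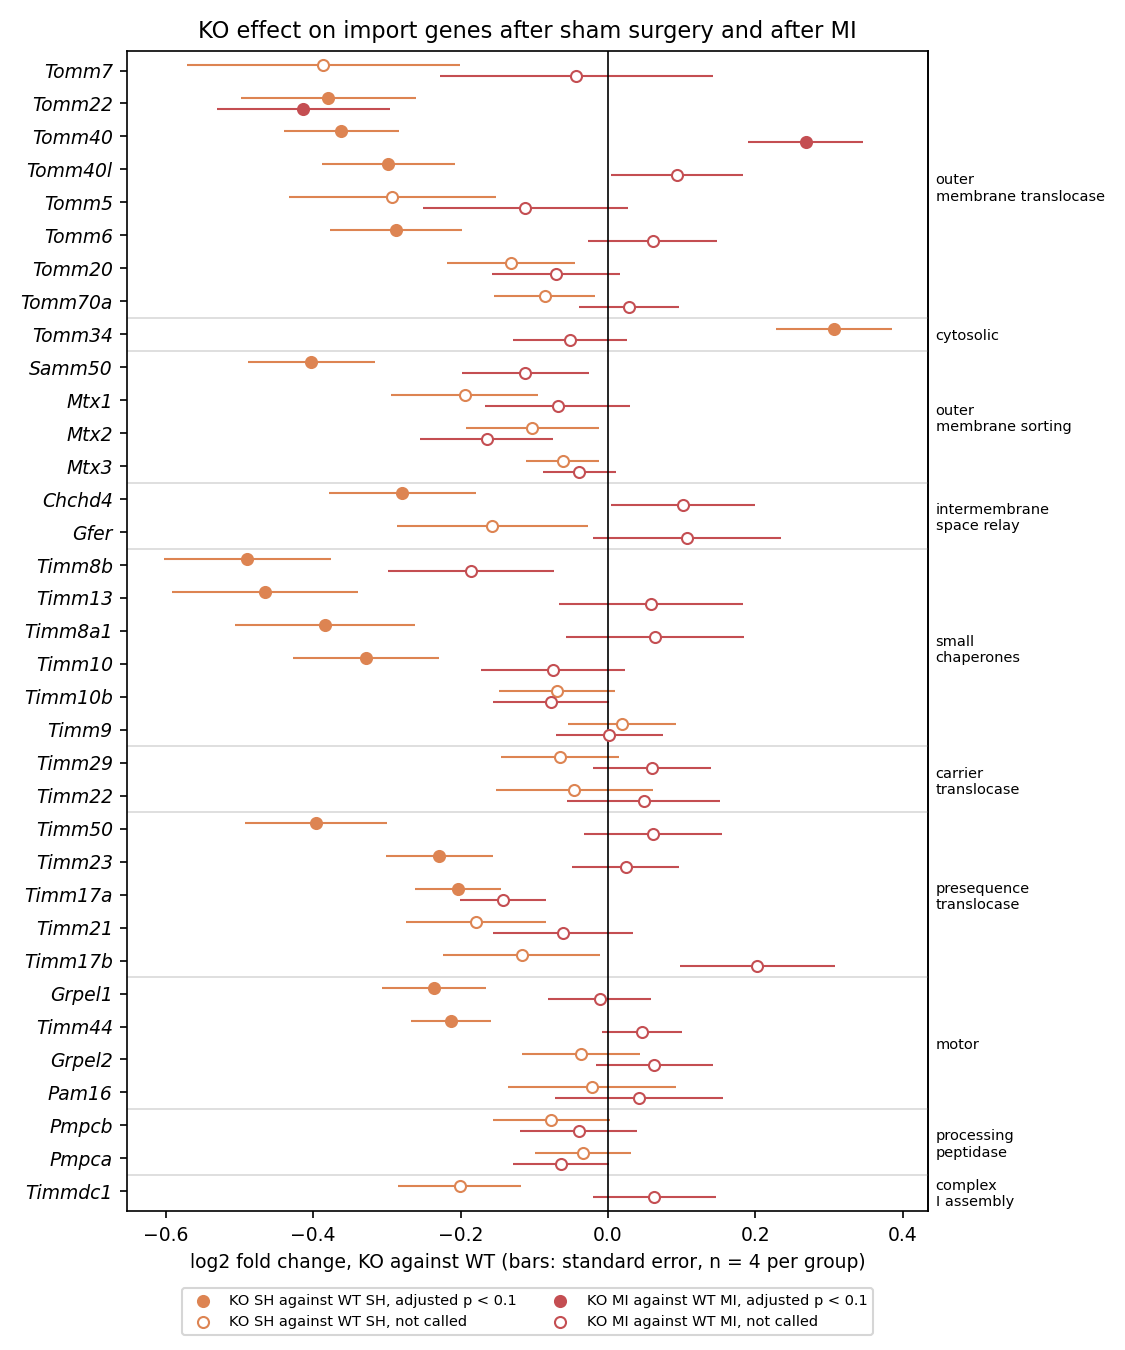
Log2 fold change of KO against WT for the 35 tested import genes, after sham surgery (orange) and after MI (red), ordered by role; bars are standard errors with 4 libraries per group, and filled points have an adjusted p under 0.1. The orange points lie left of 0 for 33 of 35 genes, with 15 filled, while the red points are spread on both sides of 0 with 2 filled.

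In the outer membrane translocase, the TOM complex, 4 of 8 tested genes were lower in KO SH. *Tomm40* (ENSMUSG00000002984; GRCm39, chromosome 7, 19435238 to 19449593, minus strand) encodes the channel through which nearly all precursors pass. It was at 22.9, 22.7, 23.1 and 21.4 CPM in WT SH and at 17.4, 17.9, 17.9 and 17.02 CPM in KO SH. The groups were far apart relative to their spread, with a log2 fold change of -0.36 (SE 0.08, adjusted p = 0.00982). *Tomm22* (ENSMUSG00000022427; chromosome 15, 79555059 to 79567316, plus strand) encodes the central receptor that holds the channels together. Its level was 12.5, 11.3, 9.70 and 8.71 CPM in WT SH and 8.34, 8.51, 7.55 and 8.13 CPM in KO SH. The WT SH libraries were widely spread and the groups came close without overlapping (log2 fold change -0.38, SE 0.12, adjusted p = 0.0596).

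*Tomm40l*, a close relative of the channel gene, fell by 0.30 on the log2 scale (SE 0.09, adjusted p = 0.0504). *Tomm6*, a small subunit that stabilises the complex, fell by 0.29 (SE 0.09, adjusted p = 0.0578). The other small subunits were not called: *Tomm7* had a log2 fold change of -0.39 (SE 0.18, adjusted p = 0.222) and *Tomm5* one of -0.29 (SE 0.14, adjusted p = 0.225). *Tomm7* was among the least expressed members, at a mean of 3.76 CPM over the 16 libraries, and ran from 2.76 to 6.15 CPM within WT SH alone. The receptors *Tomm20* and *Tomm70a*, with means of 75.6 and 57.1 CPM the first and second highest of the set, had log2 fold changes of -0.13 (SE 0.09) and -0.09 (SE 0.07) and were not called.

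*Tomm34* was the exception. Its product is a cytosolic co-chaperone that binds precursors and heat shock proteins, and its level was 7.82, 8.66, 7.89 and 6.87 CPM in WT SH and 9.67, 9.97, 8.57 and 10.5 CPM in KO SH. KO SH replicate 3 lay just under the highest WT SH library, so the groups overlapped by that library. *Tomm34* was higher in KO SH (log2 fold change 0.31, SE 0.08, adjusted p = 0.0236).

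Of the 4 genes of outer membrane sorting, *Samm50* alone was called. It encodes the barrel that inserts other barrel proteins, among them the TOM channel itself. *Samm50* (ENSMUSG00000022437; chromosome 15, 84076416 to 84101477, plus strand) was at 24.6, 25.3, 22.7 and 19.8 CPM in WT SH and at 18.1, 16.9, 18.9 and 16.1 CPM in KO SH. The groups did not overlap, and the log2 fold change was -0.40 (SE 0.09, adjusted p = 0.00931). Its partners, the metaxins *Mtx1*, *Mtx2* and *Mtx3*, had log2 fold changes between -0.19 and -0.06 that were not called.

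In the intermembrane space relay, *Chchd4*, the oxidoreductase that forms disulfides in incoming proteins, was lower by 0.28 on the log2 scale (SE 0.10). Its adjusted p of 0.09997 lay at the threshold. *Gfer*, the sulfhydryl oxidase that recharges CHCHD4, had a log2 fold change of -0.16 (SE 0.13, adjusted p = 0.510), and its groups overlapped.

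The small TIM chaperones held the largest shifts, with 4 of 6 tested genes lower. TIMM8 and TIMM13 form a hexamer of their own, and TIMM9 and TIMM10 form the major hexamer. *Timm8b* (ENSMUSG00000039016; chromosome 9, 50515193 to 50527516, plus strand) was at 8.11, 8.39, 9.496 and 7.23 CPM in WT SH and at 5.61, 6.40, 6.18 and 5.46 CPM in KO SH. This was the largest fall of the set, without overlap (log2 fold change -0.49, SE 0.11, adjusted p = 0.0151). *Timm13* (chromosome 10, 80734530 to 80736803, minus strand) was at 4.52, 3.502, 3.72 and 2.97 CPM in WT SH and at 2.80, 2.67, 2.59 and 2.62 CPM in KO SH. Its KO SH libraries were close together and WT SH replicate 1 was far above the rest (log2 fold change -0.47, SE 0.13, adjusted p = 0.0316).

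*Timm8a1* lies on the X chromosome (133433731 to 133442649, minus strand), and its human counterpart is the gene of a deafness and dystonia syndrome. Its level was 13.1, 12.7, 16.2 and 13.1 CPM in WT SH and 10.4, 11.3, 10.9 and 9.49 CPM in KO SH, without overlap (log2 fold change -0.38, SE 0.12, adjusted p = 0.0630). The KO SH libraries with high *Xist* were replicates 1 and 2, at 10.4 and 11.3 CPM, and those with low *Xist* were replicates 3 and 4, at 10.9 and 9.49 CPM. *Timm10* (chromosome 2, 84646661 to 84663226, plus strand) was at 29.2, 27.1, 27.7 and 25.3 CPM in WT SH and at 22.0, 22.9, 20.6 and 21.6 CPM in KO SH. These groups were also separate (log2 fold change -0.33, SE 0.10, adjusted p = 0.0504). *Timm9*, whose product joins TIMM10 in the major hexamer, had a log2 fold change of 0.02 (SE 0.07), and *Timm10b* one of -0.07 (SE 0.08). Neither was called. The partners of a single hexamer therefore had different values, although the difference between *Timm10* and *Timm9* was not tested.

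The carrier translocase was represented by its channel gene *Timm22* and by the subunit gene *Timm29*, and neither was called (log2 fold changes -0.05, SE 0.11, and -0.07, SE 0.08). Of the 5 genes of the presequence translocase 3 were lower. *Timm50*, the receptor that takes presequences from the outer membrane, was at 7.98, 6.42, 6.35 and 6.24 CPM in WT SH and at 4.67, 4.89, 5.11 and 5.90 CPM in KO SH (ENSMUSG00000003438; chromosome 7, 28004699 to 28011516, minus strand). The groups did not overlap, and the log2 fold change was -0.40 (SE 0.10, adjusted p = 0.0187). The channel gene *Timm23* fell by 0.23 on the log2 scale (SE 0.07, adjusted p = 0.0639) and its partner *Timm17a* by 0.20 (SE 0.06, adjusted p = 0.0421). *Timm17b*, the X-linked relative of *Timm17a*, and *Timm21*, which links the translocase to the respiratory chain, had log2 fold changes of -0.12 (SE 0.11) and -0.18 (SE 0.09) and were not called.

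In the motor, *Timm44*, which tethers the heat shock protein to the channel, fell by 0.21 on the log2 scale (SE 0.05, adjusted p = 0.0241), from 56.9 to 68.4 CPM in WT SH to 51.5 to 53.5 CPM in KO SH. *Grpel1*, the nucleotide exchange factor of the motor, fell by 0.24 (SE 0.07, adjusted p = 0.0478), and KO SH replicate 2 overlapped the WT SH range. The J-like regulator *Pam16* and the second exchange factor *Grpel2* had log2 fold changes of -0.02 (SE 0.11) and -0.04 (SE 0.08). The subunits of the processing peptidase, *Pmpca* and *Pmpcb*, had values of -0.03 (SE 0.07) and -0.08 (SE 0.08) and were not called. *Timmdc1*, which the name rule takes in although its product assembles respiratory complex I, had a log2 fold change of -0.20 (SE 0.08, adjusted p = 0.158).

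The tested members whose levels are not given above were all expressed, and their means over the 16 libraries follow by role. In TOM, *Tomm40l* was at 13.4, *Tomm5* at 9.97 and *Tomm6* at 5.85 CPM, and in outer membrane sorting *Mtx3* was at 20.1, *Mtx2* at 19.7 and *Mtx1* at 4.60 CPM. *Chchd4* and *Gfer* of the relay were at 9.07 and 6.15 CPM, and *Timm9* and *Timm10b* at 14.1 and 11.9 CPM. The carrier translocase was uneven, with 24.3 CPM for *Timm29* and 5.09 CPM for *Timm22*. In the presequence translocase *Timm23* and *Timm17a*, at 45.3 and 41.0 CPM, were well above *Timm21* and *Timm17b*, at 10.4 and 5.41 CPM. The motor genes *Grpel1*, *Grpel2* and *Pam16* were at 19.5, 10.01 and 6.06 CPM, the peptidase genes *Pmpca* and *Pmpcb* at 50.8 and 45.5 CPM, and *Timmdc1* at 12.6 CPM. CPM does not account for transcript length.

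Levels of different genes were compared per kilobase of the canonical transcript. On that scale *Timm23* and *Timm44* stood highest, at 38.6 and 31.0 CPM per kb over the 16 libraries, and they also ranked first and second per kb of all annotated exons. *Pmpcb* followed at 28.1 CPM per kb of canonical transcript and was eighth by all exons. The TOM channel gene *Tomm40* was at 12.1 CPM per kb of canonical transcript and *Timm22* at 1.02. Ranks of other genes depended on the length used, as for *Tomm6*, eleventh by canonical transcript and 35th by all exons.

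**Figure D3:**
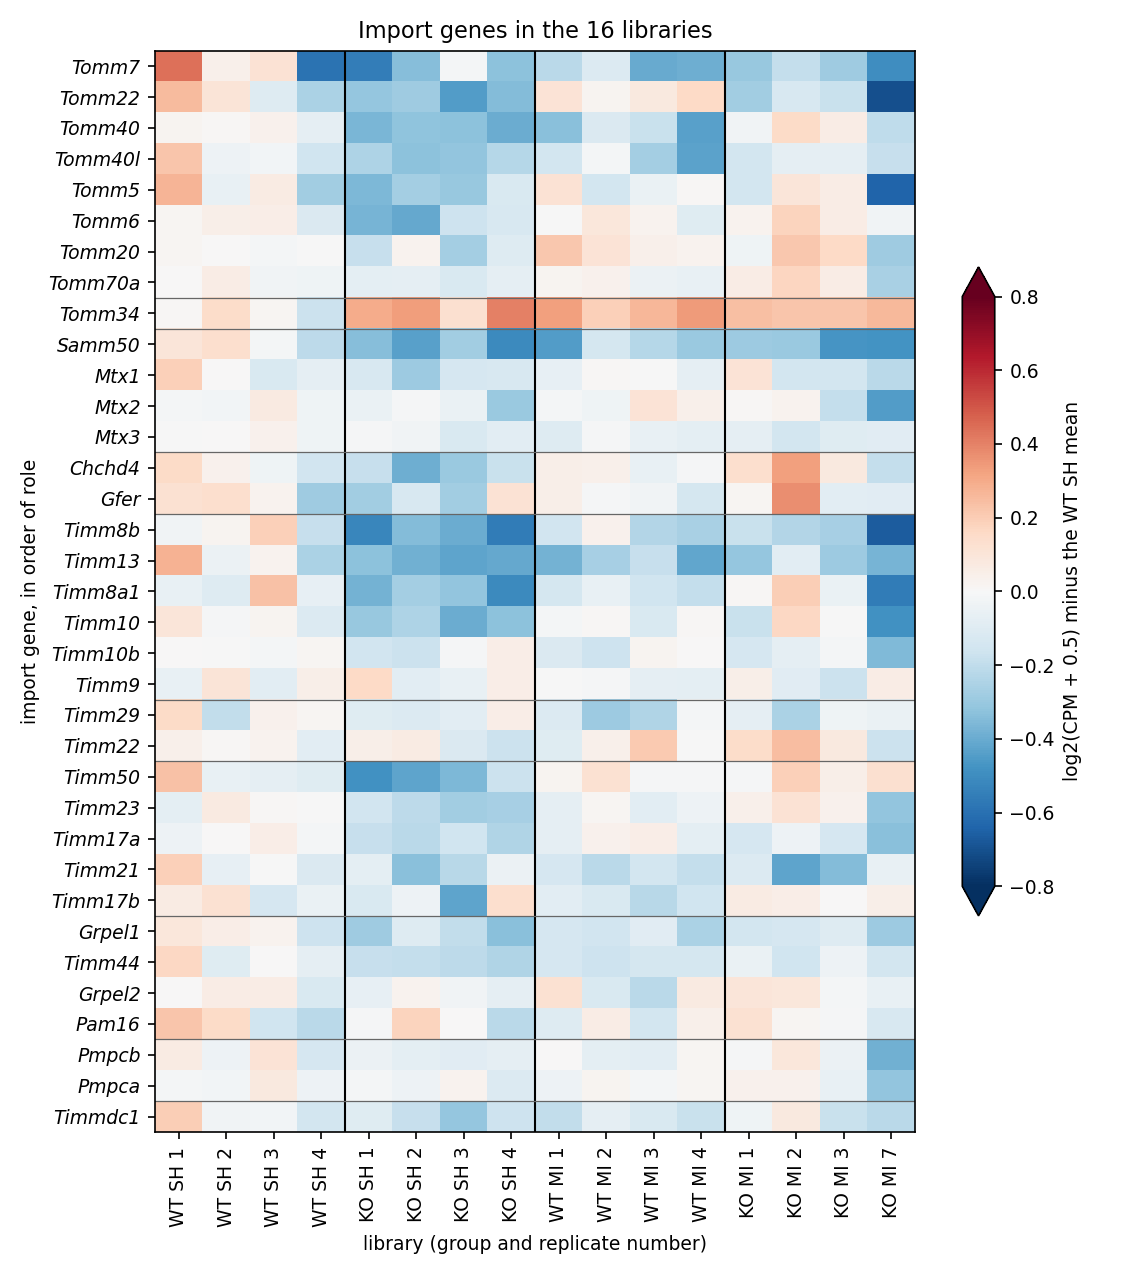
Level of the 35 tested import genes in the 16 libraries as log2(CPM + 0.5) minus the WT SH mean, with genes grouped by role along the vertical axis and libraries along the horizontal axis. Blue in the 4 KO SH columns marks the lower genes, *Tomm34* is red from KO SH onwards, and KO MI replicate 7 holds 13 of the lowest values.

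Several measured features moved with the lower levels of KO SH. The summed level of 8 cardiomyocyte markers was 28100 to 39100 CPM in WT SH and 27400 to 28300 CPM in KO SH, and 4 of the 8 were called lower (*Actc1*, *Mybpc3*, *Myh6* and *Tnni3*). The other 4 were not called: *Pln* was higher in KO SH (log2 fold change 0.20), and *Myl2*, *Ryr2* and *Tnnt2* were at -0.15 to -0.06. The share of mitochondrially encoded transcripts in the counts was 45.5% to 46.7% in WT SH and 46.8% to 47.8% in KO SH. The sum of 6 endothelial markers was 881 to 903 CPM in WT SH and 808 to 850 CPM in KO SH, and that of 6 proliferation markers was 409 to 507 and 339 to 385 CPM. Of the endothelial markers 0 were called, and of the proliferation markers 1, *Mki67*. Macrophage, fibroblast and erythroid markers had 2 of 6, 1 of 8 and 0 of 4 genes lower. The sums were 24.7 to 30.1 CPM in WT SH and 22.9 to 25.7 CPM in KO SH for macrophages, 2200 to 2570 and 2050 to 2260 CPM for fibroblasts, and 334 to 466 and 261 to 312 CPM for erythroid cells. Skeletal muscle markers, 4 of 7 tested, summed to no more than 2.59 CPM in WT SH and 1.97 CPM in KO SH. The part of these differences in the import result was not tested.

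The count of 16 changed with the libraries in the fit. Without WT SH replicate 1, the highest library, 8 genes were called (7 lower), where 7.08% of all genes were. Without KO SH replicate 4 it was 9 (8 lower, 7.59% of all genes called), and without KO SH replicate 1 it was 10 (9 lower, 7.7% of all genes). With a term for high-*Xist* libraries in the model it stayed at 16, and the share of all genes called in that fit is not given here. Among the low-*Xist* libraries alone, 4 WT SH and 2 KO SH, 1 gene was called lower, *Tomm40* (adjusted p = 0.0720), where 3.82% of all genes were called. The median log2 fold change was -0.18 in those libraries. That fit also has fewer KO SH libraries, so the loss of calls cannot be put down to sex.

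Shorter transcripts were more often lower in KO SH. Among protein-coding genes with a mean of at least 1 CPM, 23.3% of those with a canonical transcript under 1 kb were called lower, 12.4% at 1 to 2 kb, 9.53% at 2 to 4 kb and 9.21% over 4 kb. The import genes called lower were 1 of 3, 5 of 9, 3 of 12 and 6 of 11 in the same order. After a correction for transcript length 14 import genes were called, 13 of them lower, with a median log2 fold change of -0.17. The share of all genes called after that correction is not given here, so this count has no background beside it.

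**Figure D4:**
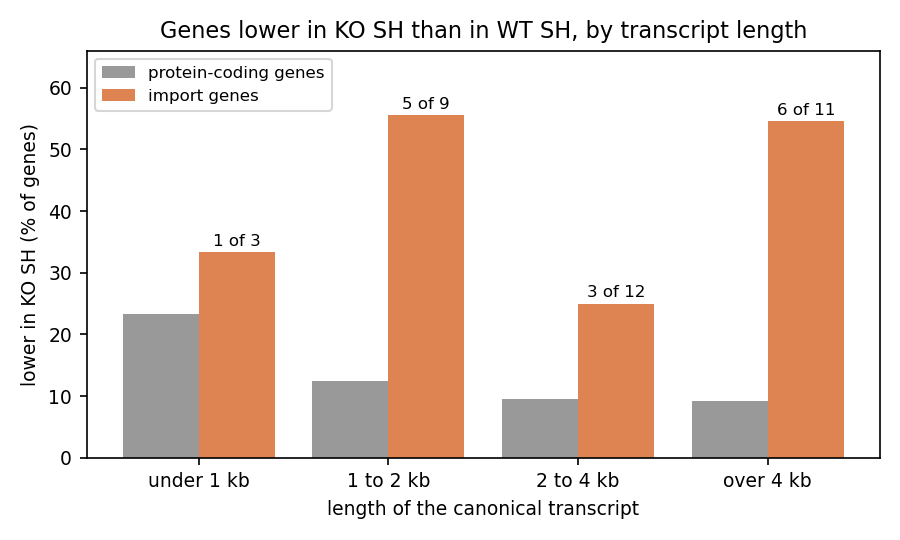
Percent of genes called lower in KO SH, against WT SH, by length of the canonical transcript, for all protein-coding genes with a mean of at least 1 CPM (grey) and for the import genes (orange, with the number of genes). The grey bars fall from 23.3% to 9.21% with length, and the import genes lie above them in each of the 4 length classes.

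The promoters of 4 members are shown because they differ in the letters known for factors of nuclear mitochondrial genes. *Tomm40* and *Tomm22* moved apart after MI, *Timm8b* had the largest fall in KO SH, and *Timm23* is the main inner membrane channel. Each runs 5′ to 3′ on the gene's strand, from 250 bases before to 50 bases after the annotated start in GRCm39 (*Tomm40* chr7:19449322-19449621, minus strand; *Tomm22* chr15:79554812-79555111, plus strand; *Timm8b* chr9:50514943-50515242, plus strand; *Timm23* chr14:31923806-31924105, minus strand). Capitals mark the motifs found on either strand, CCGGAAG for GABPA and other ETS factors and AAGGTCA for ERRA.
Tomm40: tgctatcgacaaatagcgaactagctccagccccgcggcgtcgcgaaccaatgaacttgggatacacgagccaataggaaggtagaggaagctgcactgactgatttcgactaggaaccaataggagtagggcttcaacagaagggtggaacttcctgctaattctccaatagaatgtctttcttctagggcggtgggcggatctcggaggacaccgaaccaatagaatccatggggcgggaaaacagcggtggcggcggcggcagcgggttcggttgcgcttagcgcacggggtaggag
Tomm22: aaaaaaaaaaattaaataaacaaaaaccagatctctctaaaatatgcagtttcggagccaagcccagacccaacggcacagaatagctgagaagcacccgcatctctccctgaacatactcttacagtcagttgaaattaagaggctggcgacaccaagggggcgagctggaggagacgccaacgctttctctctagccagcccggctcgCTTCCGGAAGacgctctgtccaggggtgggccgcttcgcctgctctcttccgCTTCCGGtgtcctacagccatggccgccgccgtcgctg
Timm8b: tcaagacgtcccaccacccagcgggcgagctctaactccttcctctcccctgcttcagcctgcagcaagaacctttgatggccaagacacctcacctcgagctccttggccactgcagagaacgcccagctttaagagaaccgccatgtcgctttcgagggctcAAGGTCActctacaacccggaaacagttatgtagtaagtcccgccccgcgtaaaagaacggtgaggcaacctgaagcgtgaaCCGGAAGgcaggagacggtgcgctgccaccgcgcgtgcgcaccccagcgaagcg
Timm23: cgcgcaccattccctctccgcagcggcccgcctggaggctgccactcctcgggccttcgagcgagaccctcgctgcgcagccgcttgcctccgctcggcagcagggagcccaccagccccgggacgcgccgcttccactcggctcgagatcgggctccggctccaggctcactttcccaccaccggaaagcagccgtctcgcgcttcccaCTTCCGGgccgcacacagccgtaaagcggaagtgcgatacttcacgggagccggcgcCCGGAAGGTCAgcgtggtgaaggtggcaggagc

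In the *Timm23* promoter the ETS letters and the ERRA letters share 3 bases, and in the *Tomm22* promoter a pair of ETS matches on opposite strands overlaps. The *Tomm40* window held none of the 5 motifs searched. The ETS letters CCGGAAG stood in 14 of the 37 import promoters (37.8%) and in 10.3% of the 21757 promoters of protein-coding genes. These 21757 include genes that did not pass the filter on low counts, and shares among the tested genes alone were not counted. The NRF1 letters GCGCATG stood in 3 (8.11%, against 5% of all promoters), the YY1 letters AAGATGG in 3 (8.11%, against 5.74%), the ERRA letters AAGGTCA in 3 (8.11%, against 4.48%) and the CREB letters TGACGTC in 0 (against 3.98%). Of the 15 genes lower in KO SH, 5 held the ETS letters, as did 8 of the other 20 tested genes. The 3 promoters with the ERRA letters, those of *Timm23*, *Timm44* and *Timm8b*, belong to genes lower in KO SH. A match of letters is a description of the window and was not tested for binding.

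Many import genes start close to another gene that runs the opposite way. Such a start lay within 1000 bases for 11 of the 37 (29.7%) and for 8.85% of all protein-coding genes, which again include genes that did not pass the filter. Of the 15 genes lower in KO SH, 3 had such a neighbour, and none of those neighbours was called. *Sdhd*, a subunit of respiratory complex II, starts 69 bases from *Timm8b* and had a log2 fold change of -0.09 (SE 0.08, adjusted p = 0.517). *Parg*, next to *Timm23*, had one of -0.02 (SE 0.05), and *Tmem43*, next to *Chchd4*, one of -0.18 (SE 0.09, adjusted p = 0.232). At the uncalled members *Timm10b* and *Mtx1* it was the neighbours that were called lower, *Arfip2* (log2 fold change -0.24, SE 0.06, adjusted p = 0.0284) and *Thbs3* (-0.48, SE 0.13, adjusted p = 0.0327).

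Another gene overlaps 29 of the 37 members on the opposite strand, and the strand setting of the counting is not given in the sources used here, so reads of such pairs may not be separated. For 7 members, *Gfer*, *Grpel2*, *Pam16*, *Timm17a*, *Timm23*, *Timm8a1* and *Tomm20*, a stretch of at least 200 bases is at least 95% identical to another gene, and how reads were divided there is uncertain.

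After MI, the comparison of KO with WT asks what the knockout changes in the injured heart. Here 2 of the 35 genes were called, against 3.07% of all genes tested, with 1 higher (1.03% of all genes) and 1 lower (2.04%). The median log2 fold change was 0.00, beside 0.01 over all genes. Of the values 18 were positive and 17 negative, where 52.1% of all genes were positive. An unadjusted p under 0.05 was found for 3 of the 35, beside 2503 of the 20159 genes tested. No import gene was a DEG in edgeR, where 1.73% of all genes were, or in DESeq2. The 15 genes that were lower in KO SH had a median of 0.05 in this comparison, from -0.41 to 0.27, and 9 of them were positive.

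*Tomm22* was the gene lower in KO MI. It was at 11.3, 10.6, 11.1 and 11.7 CPM in WT MI, and in KO MI at 8.52, 9.53 and 9.17 CPM for replicates 1 to 3 and at 6.23 CPM for replicate 7. Every KO MI library was below every WT MI library (log2 fold change -0.41, SE 0.12, adjusted p = 0.0898). The adjusted p exceeded 0.1 in 7 of the 8 fits without 1 library, reaching 0.226, while the log2 fold change stayed between -0.48 and -0.30. *Tomm22* was thus below WT in KO hearts after either surgery, by 0.38 and 0.41 on the log2 scale. Its call in KO SH was kept in 3 of the 8 fits without 1 library, with adjusted p up to 0.216.

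*Tomm40* was the gene higher in KO MI. It was at 17.8, 20.7, 19.8 and 16.6 CPM in WT MI and at 22.1, 25.1, 23.5 and 19.5 CPM in KO MI. KO MI replicate 7 lay within the WT MI range and the others above it (log2 fold change 0.27, SE 0.08, adjusted p = 0.0980). This call was lost in 6 of 8 fits without 1 library, with adjusted p up to 0.296. *Timm17b* was higher in every KO MI than in every WT MI library (5.61 to 5.90 against 4.75 to 5.26 CPM), but it was not called (log2 fold change 0.20, SE 0.10, adjusted p = 0.462). The 95% intervals of *Timm50*, *Samm50* and *Timm13*, which were lower in KO SH, were -0.12 to 0.24, -0.28 to 0.06 and -0.19 to 0.30 on the log2 scale in KO MI against WT MI. Those of *Timm17a* and *Timm8b*, also lower in KO SH, were -0.26 to -0.03 and -0.41 to 0.03. Neither *Timm17a* nor *Timm8b* was called after MI (adjusted p = 0.297 and 0.555).

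Among markers of other cells, 3 of 4 tested skeletal muscle genes were called higher in KO MI. The median of the 4 fold changes was 2.95 on the log2 scale, and the marker sums were 1.89 to 12.5 CPM in WT MI and 2.48 to 113 CPM in KO MI. Of the erythroid markers 1 of 4 was higher, with sums of 287 to 409 and 221 to 710 CPM. None of the cardiomyocyte, fibroblast, endothelial, macrophage and proliferation markers was called. Cardiomyocyte markers summed to 26600 to 28300 CPM in WT MI and 25100 to 28100 CPM in KO MI. The part of these differences in the import genes' values was not tested.

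**Figure D5:**
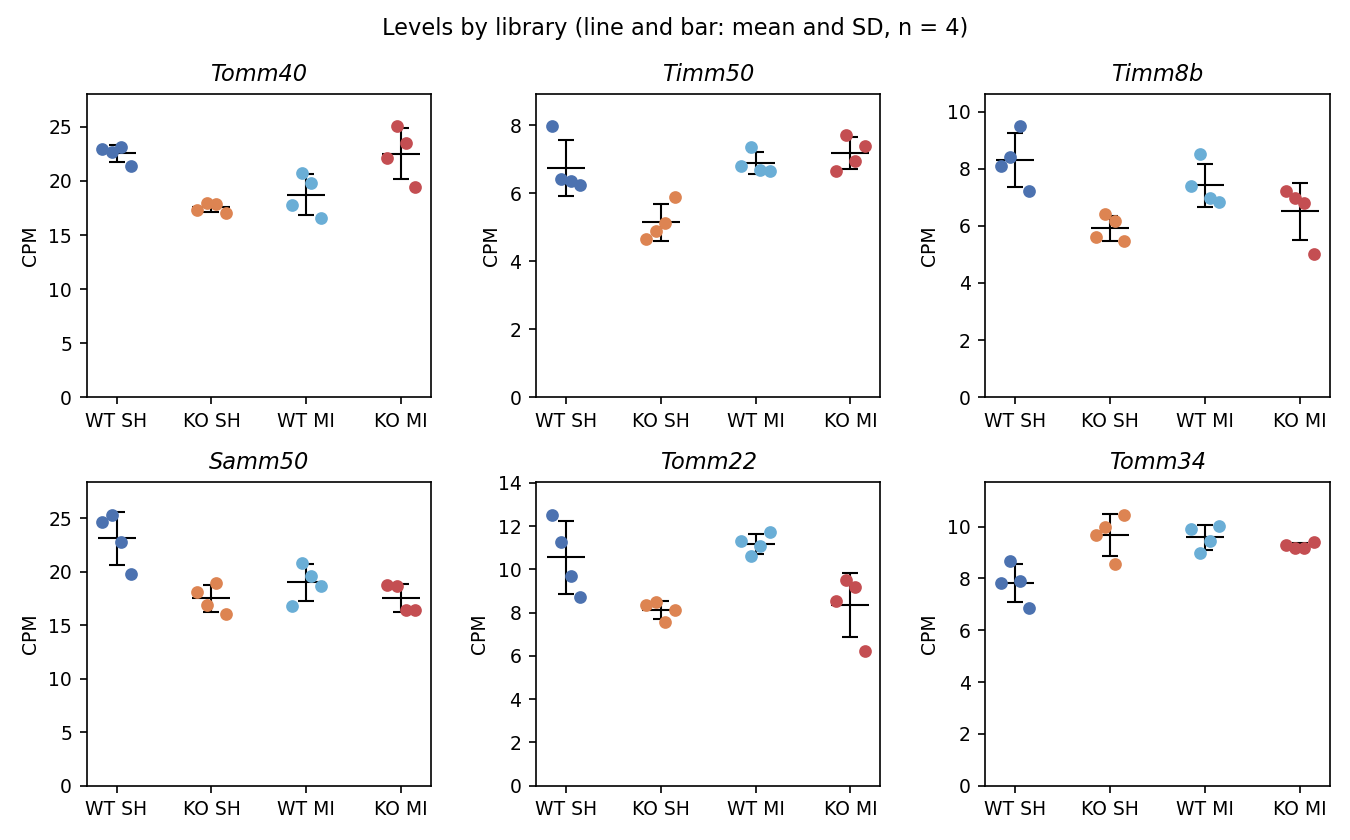
CPM of *Tomm40*, *Timm50*, *Timm8b*, *Samm50*, *Tomm22* and *Tomm34* by library; each point is a library, and the line and bar give the mean and SD of 4. *Tomm40* falls from WT SH to KO SH and to WT MI but is back at 19.5 to 25.1 CPM in KO MI, *Tomm22* is below WT in both KO groups, and the mean of *Tomm34* is lowest in WT SH.

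In WT hearts, MI called 3 of the 35 genes, 2 lower and 1 higher, against 5.31% of all genes tested (2.21% lower and 3.11% higher). *Tomm40* was lower in WT MI than in WT SH without overlap, at 16.6 to 20.7 against 21.4 to 23.1 CPM (log2 fold change -0.27, SE 0.08, adjusted p = 0.0732). *Samm50* was also lower, with 1 overlapping library (log2 fold change -0.29, SE 0.09, adjusted p = 0.0848). *Tomm34* was higher, at 9.92, 8.97, 9.45 and 10.01 CPM in WT MI, each above all WT SH libraries (log2 fold change 0.30, SE 0.08, adjusted p = 0.0468). No import gene was a DEG in edgeR or DESeq2, against 2.78% of all genes in edgeR. The median was -0.04, beside 0.00 over all genes. An unadjusted p under 0.05 was found for 8 of the 35, beside 3325 of the 20159 genes tested. The *Tomm40* call was lost in 5 of the 8 fits without 1 library (adjusted p up to 0.193), the *Samm50* call in 6 (up to 0.222) and the *Tomm34* call in 2 (up to 0.119). *Timm13*, at 2.61 to 3.15 CPM in WT MI, had a log2 fold change of -0.37 (SE 0.12, adjusted p = 0.121) and was not called.

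Markers of cell types also moved between WT SH and WT MI. Cardiomyocyte markers summed to 28100 to 39100 CPM in WT SH and 26600 to 28300 CPM in WT MI (3 of 8 called lower), and endothelial markers to 881 to 903 and 731 to 823 CPM (1 of 6 lower). Fibroblast markers were at 2200 to 2570 and 2670 to 3110 CPM (3 of 8 higher), macrophage markers at 24.7 to 30.1 and 33.9 to 57.6 CPM (1 of 6 higher) and proliferation markers at 409 to 507 and 495 to 574 CPM (2 of 6 higher). Erythroid and skeletal muscle markers had 0 of 4 tested genes called each, at 334 to 466 and 287 to 409 CPM and at up to 2.59 and 12.5 CPM. Their part in the import genes' values was not tested.

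In KO hearts MI raised 5 import genes and lowered none, with 14.3% of the tested genes higher against 10.2% of all genes. In either direction 17.5% of all genes were called, and 7.32% were lower. *Timm50* was at 6.67, 7.72, 6.96 and 7.38 CPM in KO MI, each above the highest KO SH library at 5.90 CPM (log2 fold change 0.48, SE 0.10, adjusted p = 0.00463). *Tomm40* rose from 17.02 to 17.9 CPM in KO SH to 19.5 to 25.1 CPM in KO MI (log2 fold change 0.36, SE 0.08, adjusted p = 0.00755). *Tomm6* was at 4.55, 4.43, 5.34 and 5.48 CPM in KO SH and at 6.18, 6.91, 6.32 and 5.91 CPM in KO MI (log2 fold change 0.36, SE 0.09, adjusted p = 0.0165).

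These 3 genes of the presequence receptor, the TOM channel and its small subunit had no overlap between the groups. The uncalled *Timm44* and *Tomm40l* did not overlap either. That made 5 of the 35 genes, where 14.9% of all genes tested did not overlap. *Chchd4* (log2 fold change 0.38, SE 0.10, adjusted p = 0.0204) and *Timm23* (0.21, SE 0.07, adjusted p = 0.0741) also rose, with KO MI replicate 7 inside the KO SH range for *Chchd4* and below it for *Timm23*. The *Timm23* call was lost in 6 of the 8 fits without 1 library, with adjusted p up to 0.242, and the *Chchd4* call was kept in all 8. Without KO MI replicate 7, 11 import genes were called, all higher, where 28% of all genes were called. No import gene was a DEG in edgeR or DESeq2, against 7.42% of all genes in edgeR. An unadjusted p under 0.05 was found for 7 of the 35, beside 5289 of the 20159 genes tested. This comparison and that of KO SH with WT SH share the KO SH libraries, and all 5 genes were among those lower in KO SH. The MI comparison in WT hearts gave log2 fold changes of 0.02 for *Timm50*, -0.27 for *Tomm40*, 0.01 for *Tomm6*, 0.00 for *Chchd4* and -0.05 for *Timm23*.

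Markers of other cells differed between these groups too. Summed skeletal muscle markers were at most 1.97 CPM in KO SH and 2.48 to 113 CPM in KO MI, with the highest value in KO MI replicate 7. Macrophage markers were 22.9 to 25.7 and 31.1 to 67.9 CPM (5 of 6 called higher), erythroid markers 261 to 312 and 221 to 710 CPM (4 of 4 higher), fibroblast markers 2050 to 2260 and 2820 to 3160 CPM (4 of 8 higher) and proliferation markers 339 to 385 and 505 to 688 CPM (6 of 6 higher). Endothelial markers were at 808 to 850 and 681 to 824 CPM (2 of 6 lower) and cardiomyocyte markers at 27400 to 28300 and 25100 to 28100 CPM, where 2 of 8 were higher and 2 lower. The part of these differences in the import genes' values was not tested.

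The difference of the KO effects, after MI minus after sham, was tested directly. *Tomm40* was called (log2 difference 0.63, SE 0.11, adjusted p = 0.0877), and it was 1 of 5 genes called among the 20159 tested (0.0248%). KO was below WT by 0.36 on the log2 scale after sham and above it by 0.27 after MI. The call was lost in 13 of the 16 fits without 1 library, with adjusted p up to 0.215, while the difference stayed between 0.58 and 0.69. For 29 of the 35 genes the difference was positive, where 50.3% of all genes were positive. The median was 0.18, beside 0.00 over all genes. An unadjusted p under 0.05 was found for 14 of the 35, beside 2745 of the 20159 genes tested. Among the 14 were *Timm50* (0.46, SE 0.13, adjusted p = 0.192), *Timm44* (0.26, SE 0.08, adjusted p = 0.192) and, in the negative direction, *Tomm34* (-0.36, SE 0.11, adjusted p = 0.203). For *Tomm22* the difference was -0.03 (SE 0.17). Without KO MI replicate 7, 13 import genes were called (12 positive), where 9.08% of all genes were.

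Across the 4 groups, the mean level was lowest in KO SH for 23 of the 35 genes and highest in WT SH for 22. KO MI had the lowest mean for 7 and the highest for 8. This order was not counted over all genes tested, so it has no background beside it. The WT MI and KO MI libraries overlapped for all but *Tomm22* and *Timm17b*, 2 of 35. Of all genes tested, 6.47% did not overlap between these groups.

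Other genes of mitochondrial biogenesis were counted in the comparison of KO SH with WT SH, where 7.22% of all genes were lower. Of 6 partners of the import machinery outside the name rule, 3 were lower: *Hspa9*, the heat shock protein that drives the motor (log2 fold change -0.26, adjusted p = 0.0376), *Dnajc15*, a J protein (-0.32, adjusted p = 0.0276), and *Romo1* (-0.39, adjusted p = 0.0549). Of 11 small cysteine-rich proteins that the MIA relay folds, 5 were lower, among them the respiratory subunit *Ndufs5* (-0.58, adjusted p = 0.0209), *Cmc1* (-0.53, adjusted p = 0.00420) and *Chchd10* (-0.39, adjusted p = 0.00358). Of 7 genes of MICOS, the complex that shapes the cristae, 3 were lower. Matrix folding and processing genes had 2 of 9 lower, one of them the chaperonin subunit *Hspe1* (-0.37, adjusted p = 0.0145), and mitochondrial proteases 2 of 8.

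Among nuclear OXPHOS genes 43 of 86 tested were lower and 0 higher, and among mitochondrial ribosomal protein genes 24 of 78 were lower and 0 higher. Their medians were -0.26 and -0.21 on the log2 scale, beside -0.20 for the import genes. The import genes' share of 15 of 35 lay between these values, and whether it differed from either was not tested. In KO MI against WT MI, 4 of 86 OXPHOS genes and 2 of 78 ribosomal genes were lower, against 2.04% of all genes, with medians of -0.10 and 0.00.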

How the data were processed

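The authors deposited a table of RSEM expected counts per gene, without normalization, from stranded total RNA libraries of 16 ventricles. The paper's methods name Skewer (0.1.123), STAR (2.5.3a), RSEM (1.3.0) and GRCm39, whereas the submitters' processing notes name cutadapt (3.4), HISAT2 (2.2.1) and RSEM (1.1.17). This conflict could not be settled, and the annotation release is not given in the sources used here. RSEM divides reads shared by similar genes, which adds an error that the counts do not show.

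Expected counts were rounded to whole numbers. Groups were taken from the labels, and no 2 libraries were identical. Symbols, positions and transcripts came from GENCODE M39, and promoter sequences from its starts and the GRCm39 genome. In R (4.3.3), edgeR (4.0.16) with limma (3.58.1) fitted a quasi-likelihood model, 1 coefficient per group, after TMM scaling to genes whose counts summed to 10 or more within every group. Tests were two-sided and adjusted by the Benjamini-Hochberg method over all genes tested. The code was tested on simulated data. Values in every library were given for up to 8 called genes per comparison whose groups did not overlap, by size of the log2 fold change, and for *Tomm34* and *Tomm40* also where their groups overlapped. The SE is the log2 fold change divided by the square root of the F statistic, and intervals are normal intervals from it.

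Alternatives were DESeq2 (1.42.0), its size factors, other filters, a robust fit, only the groups compared, the replicate number as a block, a term for female libraries, no mitochondrially encoded genes, an adjusted p under 0.05 and each library left out. Added after seeing the data were the low-*Xist* libraries alone and corrections for transcript length and GC content. The members, lists and motifs were chosen with earlier results of these data known, so no test was made over a list. Totals of 33783874 to 57470159 counts gave each tested member at least 99 counts in every library.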

Additional observations from a re-analysis of the deposited data

Results flagged for a closer look

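*Tomm40* differed between the surgeries in its KO effect, by 0.63 on the log2 scale in a direct test of the difference, as described above.

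Single libraries far from the other 3 of their group were looked for in 140 groups of 4 values with Dixon's ratio of the gap to the group's range at its 95% limit. There were 7, where chance gives about 1 in 20. *Timm50* was at 7.98 CPM in WT SH replicate 1 (others 6.24 to 6.42), and *Timm8a1* at 16.2 CPM in WT SH replicate 3 (others 12.7 to 13.1), both on the high side of the group against which KO SH was lower. *Mtx2* was at 21.5 CPM in WT SH replicate 3 (others 19.9 to 20.2) and at 16.5 CPM in KO SH replicate 4 (others 19.6 to 20.2). *Mtx1* was at 3.89 CPM in KO SH replicate 2 (others 4.38 to 4.41). *Timm29* was at 26.6 CPM in KO SH replicate 4 (others 23.8 to 24.2) and at 21.4 CPM in KO MI replicate 2 (others 24.4 to 25.0). *Timm50* and *Timm8a1* stayed negative in KO SH against WT SH in every fit without 1 library, at -0.47 to -0.30 and -0.42 to -0.30 on the log2 scale, with *Timm50* called in each. *Timm8a1* lost its call in 4 of the 8, with adjusted p up to 0.179.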

How the results depend on the processing

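In KO SH against WT SH the count of 16 import genes became 9 at an adjusted p under 0.05 and 1 in the low-*Xist* libraries alone, and 8 to 18 without 1 library (8 without WT SH replicate 1, 9 and 10 without KO SH replicates 4 and 1). It lay within 1.5 times in the other 11 alternatives. The share of all genes called also differed between fits, and it is not given beside most counts of this section. The count of DEGs, 0, became 1 with the female term or the length and GC correction, and 0 to 3 without 1 library. In KO MI against WT MI the 2 calls became 1 with DESeq2 size factors, no filter, the replicate block, the female term or the length and GC correction, 0 with only the groups compared, an adjusted p under 0.05 or the low-*Xist* libraries, and 0 to 1 without 1 library, each of the 8 included. In WT MI against WT SH the 3 calls became 1 at an adjusted p under 0.05 or with the length and GC correction and 0 in the low-*Xist* libraries, and 0 to 6 without 1 library (0 without WT MI replicates 1 or 4, 1 without WT SH replicates 1, 2 or 3, 6 without WT SH replicate 4), and DEGs 0 to 1. In KO MI against KO SH the 5 calls became 9 with the replicate block, 0 in the low-*Xist* libraries and 4 to 11 without 1 library (11 without KO MI replicate 7), and DEGs 0 to 1.

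For the difference of KO effects the single call became 5 with DESeq2 and 7 with the replicate block, 0 at an adjusted p under 0.05, in the low-*Xist* libraries and with the length and GC correction, and 0 to 13 without 1 library. Of all genes, DESeq2 called 2.83% for this difference, against 0.0248% in the main fit. The single DEG became 2 with the block, 0 in the same 3 alternatives and 0 to 3 without 1 library. Medians in the low-*Xist* libraries were -0.077 after MI (KO against WT) and 0.0157 within KO (MI against SH). Without 1 library the median was -0.23 to -0.12 for KO SH against WT SH (-0.12 without WT SH replicate 1), -0.02 to 0.04 for KO MI against WT MI, -0.07 to -0.03 for WT MI against WT SH, 0.05 to 0.15 for KO MI against KO SH and 0.11 to 0.26 for the difference. No called gene changed sign. Of genes called in KO SH, *Tomm40*, *Samm50*, *Timm8b*, *Timm50*, *Timm44* and *Tomm34* kept the call in all 8 fits without 1 library, and *Chchd4* lost it in 7. The rest kept it in 3 to 7 of the 8 fits, with 3 for *Tomm22*, *Tomm6* and *Timm23*. Deviations of same-numbered libraries correlated at -0.13 to 0.18 (21 pairs, 3 over 0.1), and those of other libraries at -0.147 to 0.185 (75 pairs, 9 over 0.1). These values did not show a pairing by number, but they cannot show that the samples were unpaired. With the block KO SH against WT SH still had 16 calls, while other comparisons changed as given above. KO MI replicate 7 is the only library of its number, so it adds nothing to the group comparisons in that fit. The cause of these changes was not tested.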
